A study of Mus musculus with 15 samples.

Results

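RNA of 9 genes of bone morphogenetic protein (BMP) signalling was followed through knockouts of Taf5l, Taf6l and Myc in mouse embryonic stem cells. They are the ligand gene Bmp4, the receptor gene Bmpr1a, the signal transducer genes Smad1 and Smad5, the inhibitor gene Smad6, and the target genes Id1, Id2, Id3 and Id4. The genes were taken by symbol from the deposited table of estimated counts, where each had a single entry among 37310 genes, and all 9 of the 9 passed the filter on low counts in every comparison. All libraries came from J1, a mouse embryonic stem cell line, grown in medium with fetal calf serum and leukaemia inhibitory factor (LIF). A first experiment held cells with knockout of Taf5l (Taf5l-KO), cells with knockout of Taf6l (Taf6l-KO) and wild-type J1 cells (WT-Taf). A separate experiment held cells with knockout of c-Myc (Myc-KO) and its own wild-type J1 cells (WT-Myc). Each of the 5 groups had 3 libraries. The proteins TAF5L and TAF6L belong to SAGA, a complex that modifies histones at active genes, and MYC is a DNA-binding factor that drives growth genes. The labels do not say how the knockouts were made or how many clones stand behind a group. The 3 Myc-KO libraries carry a shared code, MycC5, whose meaning is not given. Nothing in the labels says that replicates were separate cultures, so the spread that p-values here are measured against may be technical.

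BMP ligands bind type I and type II receptors, which phosphorylate SMAD1 and SMAD5; these join SMAD4, enter the nucleus and switch on target genes, the Id genes among them. ID proteins lack a DNA-binding region and hold E proteins, a class of helix-loop-helix transcription factors, in inactive pairs. In mouse embryonic stem cells, BMP from serum or added as BMP4 acts through Id genes, together with LIF, to hold back neural differentiation.

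Total counts per library lay between 17139357 and 20655500 in Taf5l-KO, between 17446821 and 21767884 in Taf6l-KO, between 14935631 and 20337365 in WT-Taf, between 22193018 and 27650813 in Myc-KO and between 17922864 and 23869375 in WT-Myc. Levels are given as CPM (counts scaled to a common library total) after TMM scaling, a correction for differences in RNA composition, and changes as log2 fold changes ± standard error (SE). A gene was called changed at a Benjamini-Hochberg adjusted p under 0.05 over all genes tested, in edgeR's quasi-likelihood test. The targeted genes were lower in the cells labelled as their knockouts. Taf5l had 42.5 ± 0.681 CPM in Taf5l-KO and 86 ± 1.89 CPM in WT-Taf, Taf6l had 6.59 ± 0.556 CPM in Taf6l-KO and 26.1 ± 0.851 CPM in WT-Taf, and Myc had 29.2 ± 1.6 CPM in Myc-KO and 66.8 ± 2.08 CPM in WT-Myc (SD, n = 3 each). Which part of each gene was deleted is not given in the labels, so the RNA that remained does not measure how complete a knockout was. Myc was also lower in the other knockouts, at 42.7 ± 0.987 CPM in Taf5l-KO and 39 ± 2.68 CPM in Taf6l-KO, against 69.2 ± 3.26 CPM in WT-Taf. Replicate 3 of Myc-KO stood apart from its group: the chi-square per degree of freedom of its counts was 36.4 against replicate 1 and 26.3 against replicate 2, while replicates 1 and 2 differed by 5.07. Results of Myc-KO are therefore also given without it. WT-Myc replicate 3 also stood apart, by 9.32 from replicate 1 and 7.65 from replicate 2, which differed from each other by 3.47. Myc-KO replicates 1 and 2 deviated from their group's mean together with WT-Myc replicate 3, and Myc-KO replicate 3 with WT-Myc replicates 1 and 2. Leaving out Myc-KO replicate 3 does not remove that shared deviation, and its part in the Myc-KO changes was not tested. The 11 embryonic stem cell marker genes that matched summed to between 4710 and 4840 CPM in Taf5l-KO, between 4630 and 4740 in Taf6l-KO, between 5480 and 5540 in WT-Taf, between 7020 and 7510 in Myc-KO and between 6580 and 6790 in WT-Myc, and none was under 1 CPM throughout a group. Of the 11, 2 rose and 7 fell in Taf5l-KO, where 17.4% of all genes tested rose and 15.9% fell. In Taf6l-KO 9 fell and none rose, where 18.2% of all genes tested fell and 19.1% rose. In Myc-KO 4 rose and 1 fell, where 15.2% of all genes tested rose and 19.5% fell. In bulk RNA, fewer cells that express a gene and less RNA per cell cannot be told apart.

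Per unit of transcript length, Id1, Bmpr1a, Id3 and Bmp4 were the most abundant of the 9 RNAs in WT-Taf cells. The authors' FPKM (a fragment count divided by transcript length and library size) averaged 105 ± 5.07 for Id1, 100 ± 2.95 for Bmpr1a, 82.2 ± 5.36 for Id3, 76.7 ± 3.15 for Bmp4 and 56.4 ± 7.22 for Smad5 in WT-Taf (SD, n = 3). Smad1 averaged 28.2 ± 0.832 FPKM, Smad6 8.99 ± 0.294, Id2 4.13 ± 0.389 and Id4 1.86 ± 0.153. The ranges of Id1 and Bmpr1a over the WT-Taf libraries overlapped, as did those of Id3 and Bmp4, while Smad5, Smad1, Smad6, Id2 and Id4 each lay below the one before. In WT-Myc cells Id1 was again highest at 98.7 ± 1.53 FPKM and Id4 lowest at 2.64 ± 0.71 FPKM, with Smad5 at 73.7 ± 4.72, Bmpr1a at 73 ± 5.92, Id3 at 61.6 ± 3.46 and Bmp4 at 57.7 ± 1.24. The ranges of Smad5 and Bmpr1a overlapped there, as did those of Id3 and Bmp4. Id2 had 20.1 ± 1.77 FPKM in WT-Myc, Smad1 15.4 ± 0.76 and Smad6 5.39 ± 0.354. These wild types were not tested against each other: they come from separate experiments, and what differs between the experiments cannot be told apart.

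**Figure D1:**
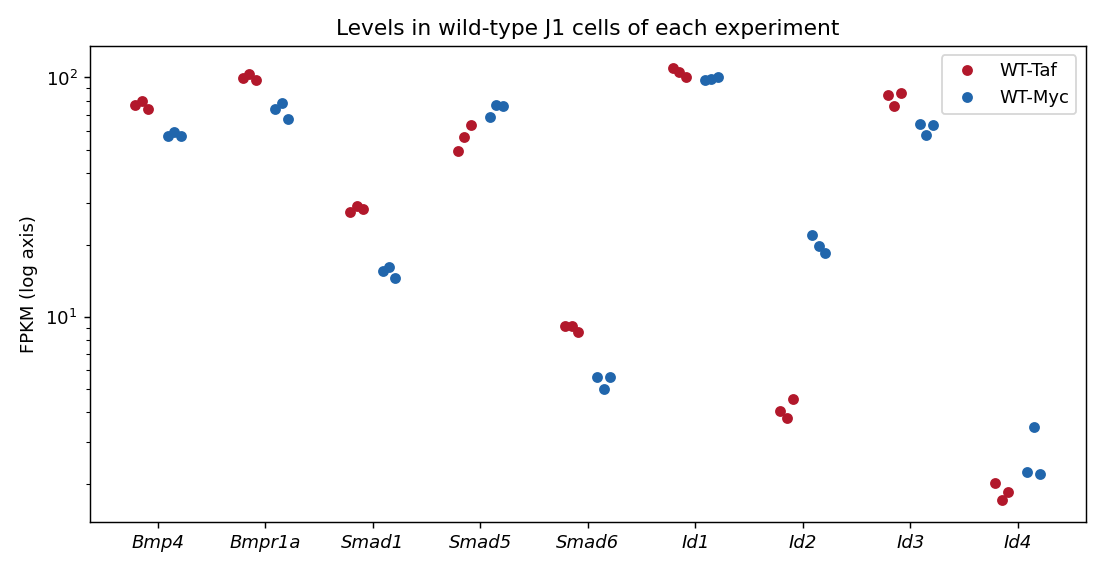
Deposited FPKM of each gene (log axis) in the 3 wild-type libraries of the Taf experiment (WT-Taf, red) and the 3 of the Myc experiment (WT-Myc, blue); each point is a library. Id1 averages 105 FPKM in WT-Taf and 98.7 in WT-Myc, while Id2 averages 4.13 in WT-Taf and 20.1 in WT-Myc.

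Promoter sequences of 300 bases (250 before and 50 from the transcription start) came from RefSeq on GRCm38.p6 for 8 of the 9 genes, at 10 starts; Id1 was not among them. They were searched on both strands for CACGTG (an E-box that MYC binds with MAX), GTCTAGAC (a palindrome that SMADs bind) and GGCGCC (a GC-rich element bound by BMP SMADs), none of which can share more than an end base with another. CACGTG was found in Bmp4 alone among the 8, starting 188 bases upstream of the start, and in 7.15% of 32851 promoters of the same length. GTCTAGAC was found in Smad6 alone, starting 4 bases upstream, and in 0.213% of those promoters. GGCGCC was found in Bmpr1a, Id2, Id4 and Smad5, and in 11.9% of those promoters. The percentages count single promoters, while a gene such as Smad5 was searched at several starts and named once. They were not matched for base composition, and the 8 genes were not tested against them. The promoters of Bmp4, which fell in every knockout, and of Smad6, for which no change was called, are shown on their own strand from 5′ to 3′, with these motifs in capitals. A match is a run of letters and was not tested as a binding site. Bmp4 lies on the minus strand at chr14:46390620-46390919 and Smad6 on the minus strand at chr9:64022010-64022309.
Bmp4: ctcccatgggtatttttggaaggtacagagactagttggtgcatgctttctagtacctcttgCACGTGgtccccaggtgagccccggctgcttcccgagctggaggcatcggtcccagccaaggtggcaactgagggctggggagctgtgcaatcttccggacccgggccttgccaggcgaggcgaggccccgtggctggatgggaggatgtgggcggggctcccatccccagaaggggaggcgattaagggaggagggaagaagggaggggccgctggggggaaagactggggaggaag
Smad6: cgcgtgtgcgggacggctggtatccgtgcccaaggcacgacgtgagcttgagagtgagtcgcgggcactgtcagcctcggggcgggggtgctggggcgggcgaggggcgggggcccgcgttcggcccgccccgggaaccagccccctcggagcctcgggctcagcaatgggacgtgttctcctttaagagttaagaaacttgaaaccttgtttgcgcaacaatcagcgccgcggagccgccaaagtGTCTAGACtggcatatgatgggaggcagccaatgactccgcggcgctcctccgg

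Bmp4 RNA fell and Id4 RNA rose in each of the 3 knockouts, while the other 7 genes moved in some knockouts or in none. The Id4 calls in both Taf knockouts were lost when some single libraries were left out. In Taf5l-KO, Bmp4 and Id3 fell and Smad5 and Id4 rose, so 4 of 9 genes changed (33.2% of the 15743 genes tested changed; 17.4% rose and 15.9% fell). In Taf6l-KO, Bmp4, Id1 and Id3 fell and Smad5, Id2 and Id4 rose, so 6 of 9 genes changed (37.2% of 15743 changed; 19.1% rose and 18.2% fell). Rises were 51.2% of all calls in Taf6l-KO, and 69% with library totals in place of TMM. In Myc-KO, Bmp4, Bmpr1a and Id1 fell and Smad1 and Id4 rose, so 5 of 9 genes changed (34.8% of 14563 changed; 15.2% rose and 19.5% fell). Without Myc-KO replicate 3, 6 of 9 changed there, beside 40% of 14822 genes tested. The share of the 9 genes that changed in Taf5l-KO was near that of all genes, and in no knockout was this share tested against that of all genes. The median log2 fold change of the 9 was 0.013 in Taf5l-KO, 0.011 in Taf6l-KO and 0.016 in Myc-KO, beside 0.001, 0.020 and -0.002 over all genes tested. Taf5l-KO and Taf6l-KO were set against the same WT-Taf libraries. Of the 15 calls, 10 held under every alternative processing tried.

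**Figure D2:**
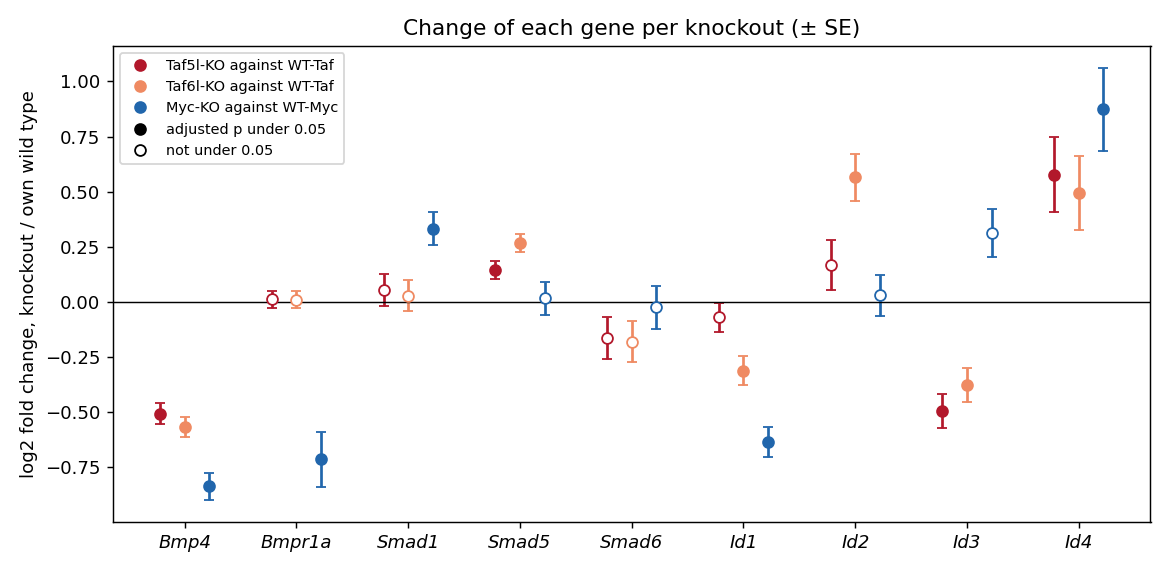
Log2 fold change of each gene (y axis) in Taf5l-KO and Taf6l-KO against WT-Taf and in Myc-KO against WT-Myc; bars are ± SE, filled points have an adjusted p under 0.05 in edgeR's quasi-likelihood test. Bmp4 lies below 0 in all 3 knockouts (-0.51, -0.57 and -0.84) and Id4 above 0 in all 3 (0.58, 0.49 and 0.87), while Id1 is at -0.07 in Taf5l-KO and -0.64 in Myc-KO.

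Bmp4 encodes a ligand of the pathway. It had 33.4, 30.9 and 32.2 CPM in Taf5l-KO and 30.5, 31.1 and 30.8 CPM in Taf6l-KO, against 45, 47.6 and 44 CPM in WT-Taf. It had 23.2, 21 and 21.2 CPM in Myc-KO, against 38.5, 40.1 and 38.3 CPM in WT-Myc. Every knockout library lay below every library of its own wild type. The log2 fold change was -0.51 ± 0.046 in Taf5l-KO (adjusted p = 1.46e-06), -0.57 ± 0.046 in Taf6l-KO (adjusted p = 3.05e-07) and -0.84 ± 0.062 in Myc-KO (adjusted p = 7.02e-05; -0.79 without Myc-KO replicate 3, adjusted p = 1.53e-05). Bmp4 fell to 0.704 of the wild-type level in Taf5l-KO, 0.675 in Taf6l-KO and 0.56 in Myc-KO.

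Bmpr1a encodes a type I receptor for BMP4. It had 97.3, 105 and 106 CPM in Taf5l-KO and 103 CPM in each Taf6l-KO library, against 99.2, 103 and 105 CPM in WT-Taf, so these groups overlapped. It had 40.6, 39 and 52 CPM in Myc-KO, against 74.6, 78.6 and 63 CPM in WT-Myc. Each Myc-KO library was below each WT-Myc library, with Myc-KO replicate 3 the highest of its group and WT-Myc replicate 3 the lowest of its own. The log2 fold change was 0.01 ± 0.038 in Taf5l-KO (adjusted p = 0.834), 0.01 ± 0.038 in Taf6l-KO (adjusted p = 0.845) and -0.71 ± 0.126 in Myc-KO (adjusted p = 0.00386). Without Myc-KO replicate 3 it was -0.83 (adjusted p = 5.39e-05).

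**Figure D3:**
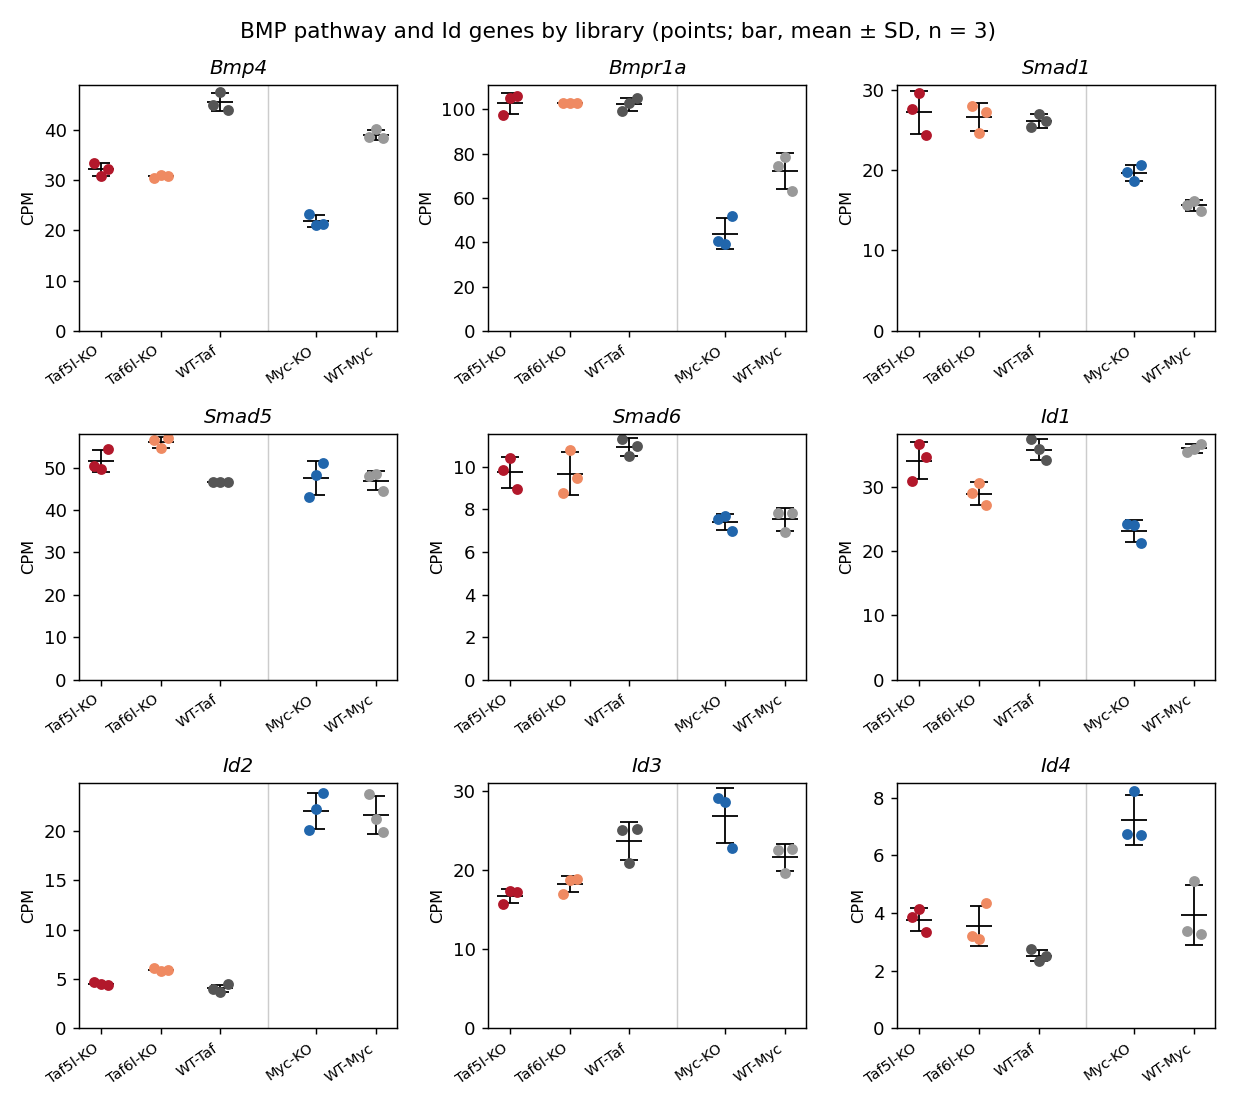
CPM per library (y axis, from 0) of each gene in Taf5l-KO, Taf6l-KO and WT-Taf, left of the line, and in Myc-KO and WT-Myc, right of it; points are libraries and bars the mean ± SD (n = 3). Bmp4 libraries of each knockout lie below those of their wild type, and Id2 libraries lie between 3.73 and 6.08 CPM in the Taf experiment and between 19.9 and 23.8 CPM in the Myc experiment.

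Bmp4 and Bmpr1a lie on chromosome 14, and in Myc-KO genes of that chromosome were lower as a group. Of 483 tested genes of chromosome 14, 237 fell (49.1%) and 34 rose in Myc-KO, while 18.9% of tested genes of the other chromosomes fell. Without Myc-KO replicate 3, 50.3% of 491 fell there and 19.8% elsewhere. The median log2 fold change was -0.32 on chromosome 14 and 0.003 on the other chromosomes. Bmp4 stood 0.52 below the chromosome 14 median on the log2 scale (difference -0.518) and Bmpr1a 0.40 below it (difference -0.396). Of the 482 other chromosome 14 genes, 102 (21.2%) had a lower log2 fold change than Bmp4 and 142 (29.5%) a lower one than Bmpr1a; without Myc-KO replicate 3 these shares were 25.7% and 22%. The part of chromosome 14 as a whole in the falls of Bmp4 and Bmpr1a in Myc-KO was not tested. In the Taf knockouts the chromosome 14 median was 0.024 in Taf5l-KO and 0.014 in Taf6l-KO, where Bmp4 stood at -0.51 and -0.57 and Bmpr1a was not called. The other 7 genes lie elsewhere, Id1 on chromosome 2, Id2 on 12, Id3 on 4, Smad1 on 8, Smad6 on 9, and Id4 and Smad5 on 13.

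**Figure D4:**
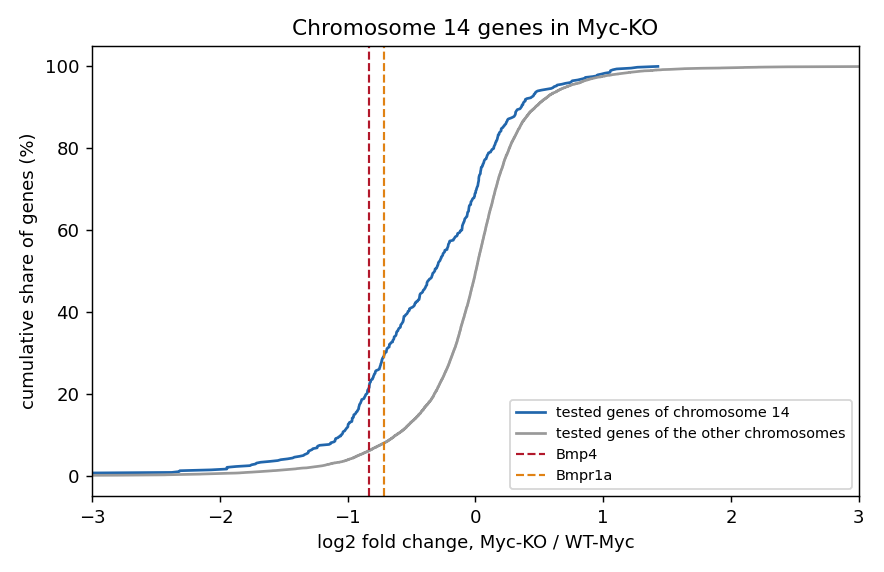
Cumulative share of tested genes (y axis, %) by log2 fold change in Myc-KO against WT-Myc (x axis, from -3 to 3), for chromosome 14 (blue) and the other chromosomes (grey); dashed lines mark Bmp4 and Bmpr1a. The blue curve lies left of the grey curve over most of its length, and 21.2% of other chromosome 14 genes lie below Bmp4 and 29.5% below Bmpr1a.

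Smad1 and Smad5 encode SMADs that BMP receptors phosphorylate, and they moved in different knockouts. Smad5 had 50.4, 49.7 and 54.5 CPM in Taf5l-KO and 56.5, 54.6 and 57 CPM in Taf6l-KO, against 46.6 CPM in each WT-Taf library. All 6 Taf knockout libraries were higher than the WT-Taf libraries, with log2 fold changes of 0.145 ± 0.043 in Taf5l-KO (adjusted p = 0.0176) and 0.27 ± 0.042 in Taf6l-KO (adjusted p = 0.00019). The Taf5l-KO call rested on Taf5l-KO replicate 3 and on WT-Taf replicates 1 and 2, since without each in turn the adjusted p was 0.0956, 0.0518 and 0.0513. On the authors' FPKM, log2(FPKM + 1) in limma, neither Smad5 rise was called (adjusted p = 0.211 in Taf5l-KO and 0.062 in Taf6l-KO), and WT-Taf libraries ranged between 49.1 and 63.5 FPKM. In Myc-KO Smad5 had 43.1, 48.3 and 51 CPM, against 48, 48.5 and 44.4 CPM in WT-Myc, with a log2 fold change of 0.02 ± 0.075 (adjusted p = 0.887; -0.019 without Myc-KO replicate 3, adjusted p = 0.836).

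Smad1 had 19.7, 18.6 and 20.6 CPM in Myc-KO, against 15.7, 16.2 and 14.9 CPM in WT-Myc. The groups did not overlap, and Smad1 was higher in Myc-KO by 0.33 ± 0.074 on the log2 scale (adjusted p = 0.0108; 0.31 without Myc-KO replicate 3, adjusted p = 0.0105). In the Taf experiment Smad1 had 27.6, 29.6 and 24.3 CPM in Taf5l-KO and 28, 24.6 and 27.2 CPM in Taf6l-KO, against 25.3, 27 and 26.1 CPM in WT-Taf. These groups overlapped, with log2 fold changes of 0.06 ± 0.072 (adjusted p = 0.606) in Taf5l-KO and 0.03 ± 0.071 (adjusted p = 0.796) in Taf6l-KO.

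Smad6, which encodes an inhibitory SMAD and is itself a target of BMP signalling, was called in no knockout when all libraries were fitted. It had 9.85, 10.4 and 8.98 CPM in Taf5l-KO and 8.79, 10.8 and 9.46 CPM in Taf6l-KO, against 11.3, 10.5 and 11 CPM in WT-Taf. The Taf5l-KO libraries all lay below the WT-Taf libraries, at a log2 fold change of -0.16 ± 0.094 (adjusted p = 0.206), and the Taf6l-KO libraries overlapped them, at -0.18 ± 0.093 (adjusted p = 0.145). In Myc-KO it had 7.55, 7.7 and 6.97 CPM, against 7.83, 6.93 and 7.83 CPM in WT-Myc, at a log2 fold change of -0.02 ± 0.098 (adjusted p = 0.873; 0.039 without Myc-KO replicate 3, adjusted p = 0.803). Counts of Smad6 lay between 137 and 211 per library. Without Taf6l-KO replicate 2, the highest of its group, Smad6 was called lower in Taf6l-KO (-0.26, adjusted p = 0.0484).

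Of the Id genes, Id1 fell in Taf6l-KO and Myc-KO, Id2 rose in Taf6l-KO, Id3 fell in both Taf knockouts and Id4 rose in all 3 knockouts. Id1 encodes an ID protein through which BMP is known to act in these cells. It had 30.9, 36.6 and 34.6 CPM in Taf5l-KO and 29, 30.6 and 27.1 CPM in Taf6l-KO, against 37.4, 35.8 and 34.1 CPM in WT-Taf. It had 24.2, 24.1 and 21.2 CPM in Myc-KO, against 35.4, 35.8 and 36.7 CPM in WT-Myc. Taf5l-KO overlapped WT-Taf, while every Taf6l-KO and Myc-KO library was below its wild type. The log2 fold change was -0.07 ± 0.064 in Taf5l-KO (adjusted p = 0.443), -0.31 ± 0.065 in Taf6l-KO (adjusted p = 0.00162) and -0.64 ± 0.068 in Myc-KO (adjusted p = 0.000375; -0.56 without Myc-KO replicate 3, adjusted p = 7.32e-05).

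Id3, like Id1 a direct target of BMP SMADs, had 15.7, 17.3 and 17.2 CPM in Taf5l-KO and 17, 18.7 and 18.8 CPM in Taf6l-KO, against 25, 20.9 and 25.1 CPM in WT-Taf. It had 29, 28.6 and 22.8 CPM in Myc-KO, against 22.5, 19.6 and 22.6 CPM in WT-Myc. No knockout group overlapped its wild type: Id3 was lower in both Taf knockouts, and in Myc-KO replicates 1 and 2 were well above WT-Myc and replicate 3 just above it. The falls were -0.49 ± 0.079 in Taf5l-KO (adjusted p = 0.000247) and -0.38 ± 0.077 in Taf6l-KO (adjusted p = 0.0014). In Myc-KO the log2 fold change was 0.31 ± 0.109 and was not called (adjusted p = 0.0584). Without Myc-KO replicate 3 it was 0.44 and was called (adjusted p = 0.00194), and DESeq2 also called it at 0.33 (adjusted p = 0.0363).

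Id2, which encodes an ID protein also known in lymphoid and neural cells, had 4.69, 4.54 and 4.38 CPM in Taf5l-KO and 6.08, 5.85 and 5.97 CPM in Taf6l-KO, against 3.99, 3.73 and 4.47 CPM in WT-Taf. All 3 Taf6l-KO libraries were above the others, and Taf5l-KO overlapped WT-Taf. The log2 fold change was 0.17 ± 0.114 in Taf5l-KO (adjusted p = 0.34) and 0.56 ± 0.108 in Taf6l-KO (adjusted p = 0.000895). In the Myc experiment Id2 had 20.1, 22.2 and 23.8 CPM in Myc-KO, against 23.7, 21.2 and 19.9 CPM in WT-Myc. These overlapped, at a log2 fold change of 0.03 ± 0.092 (adjusted p = 0.832; -0.008 without Myc-KO replicate 3, adjusted p = 0.95).

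Id4, the least abundant of the 4 Id RNAs per transcript length, encodes an ID protein known from neural progenitors. It had 3.86, 4.13 and 3.34 CPM in Taf5l-KO and 3.2, 3.09 and 4.36 CPM in Taf6l-KO, against 2.75, 2.34 and 2.5 CPM in WT-Taf. It had 6.75, 8.23 and 6.72 CPM in Myc-KO, against 3.37, 5.13 and 3.28 CPM in WT-Myc. No knockout group overlapped its wild type, with WT-Myc replicate 2 and Taf6l-KO replicate 3 the highest of their groups. Id4 rose by 0.58 ± 0.17 in Taf5l-KO (adjusted p = 0.0174), 0.49 ± 0.169 in Taf6l-KO (adjusted p = 0.0328) and 0.87 ± 0.189 in Myc-KO (adjusted p = 0.00943; 0.94 without Myc-KO replicate 3, adjusted p = 0.00315). With between 37 and 95 counts per library in the Taf experiment, the Taf calls were lost when some single libraries were left out. In Taf5l-KO it was no longer called without Taf5l-KO replicate 2 (0.51 ± 0.192, adjusted p = 0.0678) or WT-Taf replicate 2 (0.52 ± 0.197, adjusted p = 0.0699), and in Taf6l-KO without Taf6l-KO replicate 3 (0.32 ± 0.168, adjusted p = 0.177) or WT-Taf replicate 2 (0.43 ± 0.196, adjusted p = 0.114) or WT-Taf replicate 3 (0.49 ± 0.193, adjusted p = 0.0718). DESeq2 called neither (adjusted p = 0.0586 in Taf5l-KO and 0.115 in Taf6l-KO).

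Set directly against each other, Taf6l-KO and Taf5l-KO cells differed in Id1 and Id2. These 2 of the 9 genes were called (18.7% of the 15743 genes tested were): Id1 was lower in Taf6l-KO, at a log2 difference of -0.24 ± 0.065 (28.9 ± 1.71 CPM in Taf6l-KO and 34 ± 2.93 CPM in Taf5l-KO, adjusted p = 0.0176), and Id2 was higher by 0.40 ± 0.105 (5.97 ± 0.118 CPM in Taf6l-KO and 4.54 ± 0.153 CPM in Taf5l-KO, adjusted p = 0.0166; SD, n = 3 each). Smad5 differed by 0.12 ± 0.041 and was not called (adjusted p = 0.0562), although all 3 Taf6l-KO libraries were higher. Which genes were called depended on the scaling: with library totals Smad5 was called at 0.21 (adjusted p = 0.00496) and Id1 was not, at -0.15 (adjusted p = 0.0924). Smad5 was also called without Taf5l-KO replicate 3 (0.16, adjusted p = 0.0147). Id1 was no longer called without Taf5l-KO replicate 2 (-0.18, adjusted p = 0.0884) or Taf6l-KO replicate 3 (-0.20, adjusted p = 0.0852), and Id2 without Taf5l-KO replicate 3 (0.37, adjusted p = 0.0539) or Taf6l-KO replicate 1 (0.38, adjusted p = 0.0506). For Bmp4 the difference was -0.06 ± 0.048 (adjusted p = 0.413) and for Id3 0.12 ± 0.08 (adjusted p = 0.356).

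The effects of the Taf knockouts were also set against that of the Myc knockout in a single fit of all 15 libraries. Id3, Bmpr1a, Id1, Smad1 and Bmp4 differed between the Taf5l and Myc effects, 5 of 9 genes (32.1% of 16286 genes tested differed). The same genes and Id2 differed between the Taf6l and Myc effects, 6 of 9 genes (34.8% of 16286 genes differed). For Id3 the Taf5l effect minus the Myc effect was -0.85 ± 0.146 (adjusted p = 0.000327) and the Taf6l effect minus the Myc effect -0.73 ± 0.144 (adjusted p = 0.000933), with falls in the Taf knockouts and a positive log2 fold change in Myc-KO. For Bmpr1a these differences were 0.68 ± 0.12 (adjusted p = 0.000434) and 0.68 ± 0.12 (adjusted p = 0.000365), and for Id1 0.52 ± 0.102 (adjusted p = 0.00104) and 0.29 ± 0.103 (adjusted p = 0.0409). Bmp4 fell more in Myc-KO, by 0.29 ± 0.076 against Taf5l-KO (adjusted p = 0.00852) and 0.23 ± 0.076 against Taf6l-KO (adjusted p = 0.0289). Bmp4 and Bmpr1a lie on chromosome 14, whose median log2 fold change was -0.32 in Myc-KO, 0.024 in Taf5l-KO and 0.014 in Taf6l-KO. The part of that chromosome in the differences of these genes was not tested. Smad1 differed by -0.32 ± 0.103 (adjusted p = 0.0271) and -0.35 ± 0.103 (adjusted p = 0.0157), and Id2 by 0.49 ± 0.127 in the Taf6l comparison (adjusted p = 0.00663). Some of these calls were lost when any of several single libraries was left out. The Taf6l difference of Bmp4 was lost without Myc-KO replicate 2 or 3, Taf6l-KO replicate 2 or 3, WT-Myc replicate 2 or WT-Taf replicate 1 or 3 (adjusted p up to 0.0684). That of Id1 was lost without Myc-KO replicate 3, Taf6l-KO replicate 1 or 2, WT-Taf replicate 2 or 3 or any WT-Myc library (adjusted p up to 0.0997). The Taf5l difference of Smad1 no longer passed without Taf5l-KO replicate 3 (adjusted p = 0.0709), WT-Myc replicate 3 (adjusted p = 0.0669) or WT-Taf replicate 2 (adjusted p = 0.0693). For Id4 no difference was called, at -0.34 ± 0.264 against Taf5l-KO (adjusted p = 0.365) and -0.42 ± 0.263 against Taf6l-KO (adjusted p = 0.24), but without WT-Myc replicate 2 the Taf6l difference was -0.66 and was called (adjusted p = 0.0455). The Taf6l difference of Smad5, 0.21 ± 0.079 (adjusted p = 0.0517), was called without Myc-KO replicate 3 (0.25, adjusted p = 0.0122) or WT-Myc replicate 3 (0.24, adjusted p = 0.0354). Both comparisons share the 6 libraries of the Myc experiment, and the wild types come from separate experiments.

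Of 81 other genes of the pathway, 80 matched the table and 65 were tested. In Taf5l-KO 18 rose and 11 fell, in Taf6l-KO 21 rose and 18 fell, and in Myc-KO 14 rose and 18 fell. Over all genes tested, 17.4% rose and 15.9% fell in Taf5l-KO, 19.1% rose and 18.2% fell in Taf6l-KO, and 15.2% rose and 19.5% fell in Myc-KO. The balance of rises and falls depended on the scaling and the method: in Taf6l-KO 25 rose and 10 fell with library totals and 6 rose and 12 fell on log2(FPKM + 1), and in Taf5l-KO 10 rose and 10 fell with DESeq2. Without Myc-KO replicate 3, 17 rose and 18 fell in Myc-KO, and all 17 pathway genes examined singly there kept their direction and their call (adjusted p up to 0.0426). The counts also depended on single wild-type libraries: the 39 calls in Taf6l-KO became 24 without WT-Taf replicate 2, and the 32 in Myc-KO became 19 without WT-Myc replicate 2. The median log2 fold changes of the 65 genes were 0.11 in Taf5l-KO, 0.11 in Taf6l-KO and -0.03 in Myc-KO, beside 0.001, 0.020 and -0.002 over all genes tested.

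**Figure D5:**
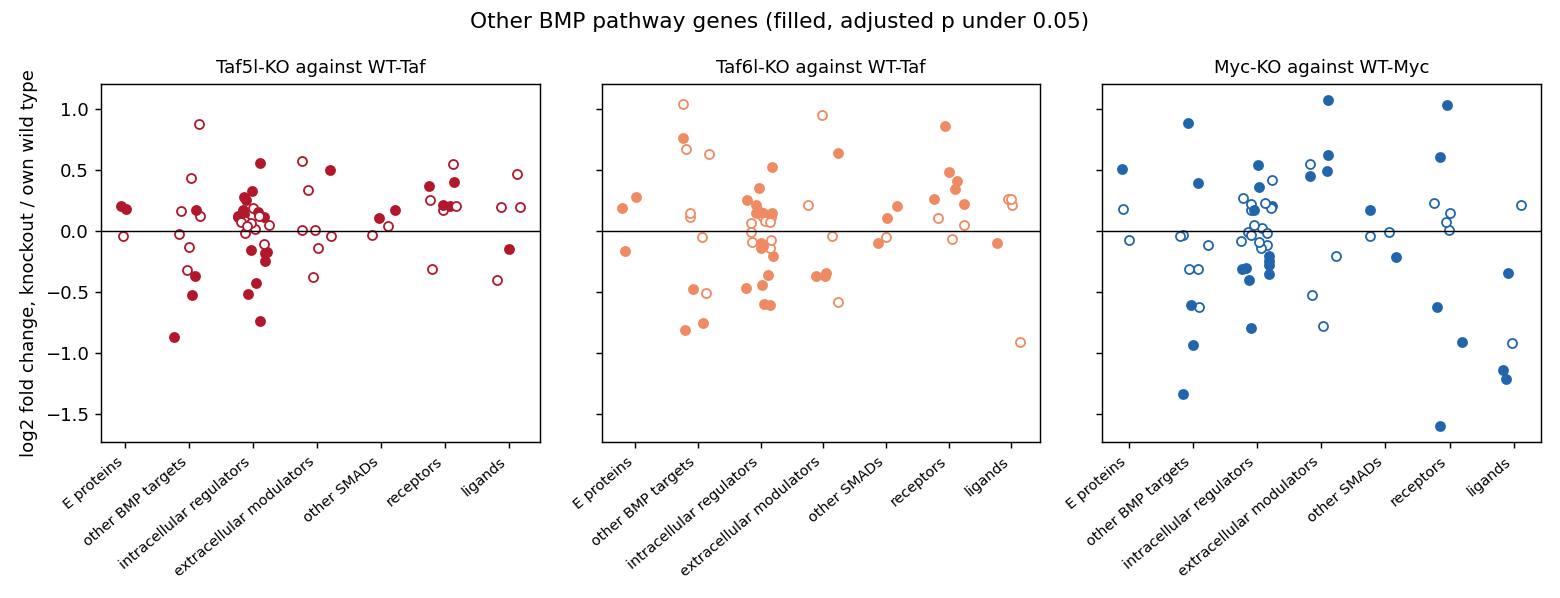
Log2 fold change (y axis) of the other tested pathway genes by list (x axis) in Taf5l-KO and Taf6l-KO against WT-Taf and in Myc-KO against WT-Myc; each point is a gene, filled at an adjusted p under 0.05 in edgeR's quasi-likelihood test. Of 9 receptor genes, 4 in Taf5l-KO and 6 in Taf6l-KO are filled above 0 and none is filled below it (17.4% and 19.1% of all genes tested rose, and 15.9% and 18.2% fell), while in Myc-KO 2 are filled above 0 and 3 below.

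Of the 9 other receptor and co-receptor genes, 4 rose in Taf5l-KO, where 17.4% of all genes tested rose, and 6 rose in Taf6l-KO, where 19.1% did; none fell in either. With library totals 2 rose in Taf5l-KO and 6 in Taf6l-KO. Their median log2 fold change was 0.21 in Taf5l-KO and 0.26 in Taf6l-KO. Rgmb, which encodes a BMP co-receptor, rose in all 3 knockouts, by 0.37 ± 0.074 in Taf5l-KO (adjusted p = 0.00141), 0.41 ± 0.073 in Taf6l-KO (adjusted p = 0.000508) and 0.61 ± 0.097 in Myc-KO (adjusted p = 0.0023). Acvr2a, a type II receptor gene, rose by 0.21 ± 0.065 in Taf5l-KO (adjusted p = 0.0237) and 0.34 ± 0.063 in Taf6l-KO (adjusted p = 0.000641), and Acvr2b, another, by 0.41 ± 0.077 in Taf5l-KO (adjusted p = 0.00104). Eng, the gene of the co-receptor endoglin, rose by 0.48 ± 0.073 in Taf6l-KO (between 19.7 and 20.2 CPM in Taf6l-KO and between 13.3 and 15.5 CPM in WT-Taf, adjusted p = 0.000137). In Myc-KO it fell by 0.91 ± 0.08 (36.1 ± 3.61 CPM in Myc-KO and 67.8 ± 2.61 CPM in WT-Myc, adjusted p = 0.000144; SD, n = 3 each). Bmpr2, the type II receptor gene most specific to BMP, also fell in Myc-KO, at -0.62 ± 0.085 (adjusted p = 0.00117), and 3 of 9 receptor genes fell and 2 rose there (19.5% of all genes tested fell and 15.2% rose). The Taf5l-KO call of Acvr2a was lost under 10 of 16 alternatives, among them DESeq2 (adjusted p = 0.119) and leaving out Taf5l-KO replicate 2 or 3 or WT-Taf replicate 2 or 3. On log2(FPKM + 1) Acvr2a (adjusted p = 0.0714) and Eng (adjusted p = 0.131) were not called in Taf6l-KO.

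Other ligand genes were mostly low, and 5 of 9 were tested. Gdf3, which encodes a TGF-beta family protein that can inhibit BMP, fell in Taf5l-KO, at a log2 fold change of -0.14 ± 0.035 (adjusted p = 0.00599), and in Myc-KO, at -0.34 ± 0.056 (adjusted p = 0.00268). In Taf6l-KO it was also called, at -0.10 ± 0.034 (adjusted p = 0.0353), but 12 of 16 alternatives ended that call, among them library totals (-0.03, adjusted p = 0.583), DESeq2 (adjusted p = 0.0949) and leaving out any Taf6l-KO library or WT-Taf replicate 1 or 2. Gdf3 was the only one of the 5 called in the Taf knockouts, while in Myc-KO 3 of 5 fell, Bmp7 among them at -1.21 ± 0.239 (1.61 ± 0.324 CPM in Myc-KO and 3.68 ± 0.995 CPM in WT-Myc, adjusted p = 0.0064; SD, n = 3 each), although on log2(FPKM + 1) Bmp7 was at -0.63 and not called (adjusted p = 0.0812). Of 8 tested genes for secreted modulators, 4 rose in Myc-KO and none fell (15.2% of all genes tested rose and 19.5% fell); without Myc-KO replicate 3, 4 rose and 1 fell. The 4 included antagonists of BMP and activin ligands: Fst (follistatin) rose by 1.08 ± 0.147 (adjusted p = 0.00117), Chrd (chordin) by 0.62 ± 0.13 (adjusted p = 0.00831) and Fstl1 by 0.50 ± 0.043 (adjusted p = 0.000137). In Taf6l-KO, Fst fell by 0.36 ± 0.132 (adjusted p = 0.0437) and Fstl1 fell by 0.36 ± 0.04 (adjusted p = 7.4e-06), and 3 of 8 fell and 1 rose (18.2% of all genes tested fell and 19.1% rose). The Fst call there was lost under 10 of 16 alternatives, among them DESeq2 (adjusted p = 0.118), library totals (adjusted p = 0.0839) and leaving out Taf6l-KO replicate 2 or 3 or WT-Taf replicate 1 or 2. The gene that rose was Bmp1, which encodes a protease that cleaves chordin and is no BMP ligand; it rose by 0.64 ± 0.142 in Taf6l-KO (adjusted p = 0.00276) and 0.50 ± 0.146 in Taf5l-KO (adjusted p = 0.0166), where no other modulator gene was called and where the call was lost with DESeq2 (adjusted p = 0.0974) and without WT-Taf replicate 2 (adjusted p = 0.0567).

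Of the 4 tested other SMAD genes, Smad2, which carries activin and Nodal signals, rose by 0.11 ± 0.037 in Taf5l-KO (adjusted p = 0.0323) and 0.11 ± 0.037 in Taf6l-KO (adjusted p = 0.0338). Each Smad2 call was lost under 12 of 16 alternatives, among them DESeq2 (adjusted p = 0.196 in Taf5l-KO and 0.233 in Taf6l-KO) and leaving out any Taf5l-KO library, Taf6l-KO replicate 2 or 3, or WT-Taf replicate 1 or 2. Smad7, an inhibitory SMAD gene, rose by 0.17 ± 0.035 in Taf5l-KO (adjusted p = 0.00176; 0.0584 on log2(FPKM + 1)). Smad4, the gene of the shared partner SMAD, fell by 0.10 ± 0.033 in Taf6l-KO (adjusted p = 0.0337) and rose by 0.17 ± 0.055 in Myc-KO (adjusted p = 0.0429). In Taf6l-KO the Smad4 call was lost with library totals (-0.028, adjusted p = 0.616), with DESeq2 (adjusted p = 0.0978) and without replicate 1 or 2 of Taf6l-KO or 2 or 3 of WT-Taf. In Myc-KO it was lost without Myc-KO replicate 2 or any WT-Myc library (adjusted p up to 0.141). Smad3 rose by 0.20 ± 0.058 in Taf6l-KO (adjusted p = 0.0123) on counts, but on the authors' FPKM and normalized values it was lower there (-0.115 on log2(FPKM + 1)) and not called, and it fell by 0.21 ± 0.054 in Myc-KO (adjusted p = 0.0201). Leaving out replicate 1 of Taf6l-KO or replicate 2 of WT-Taf also ended the Smad3 call in Taf6l-KO. The fall of Smad3 in Myc-KO was lost under 11 of 15 alternatives, among them DESeq2 (adjusted p = 0.0936) and leaving out Myc-KO replicate 1 or any WT-Myc library. Genes for intracellular regulators went both ways: of 27 tested, 9 rose and 7 fell in Taf5l-KO, 9 rose and 9 fell in Taf6l-KO, and 4 rose and 8 fell in Myc-KO, where 8 rose and 7 fell with library totals and 7 rose and 7 fell without Myc-KO replicate 3. Over all genes tested, 17.4% rose and 15.9% fell in Taf5l-KO, 19.1% and 18.2% in Taf6l-KO, and 15.2% and 19.5% in Myc-KO. Tgif1, which encodes a SMAD co-repressor, fell by 0.52 ± 0.032 in Taf5l-KO (117 ± 3.6 CPM in Taf5l-KO and 167 ± 1.59 CPM in WT-Taf, adjusted p = 3.42e-08) and fell by 0.60 ± 0.032 in Taf6l-KO (adjusted p = 5.81e-09). Its relative Tgif2 rose by 0.56 ± 0.046 in Taf5l-KO (adjusted p = 5.24e-07) and fell by 0.40 ± 0.062 in Myc-KO (adjusted p = 0.00218). Tob1, whose product binds BMP SMADs and dampens them, fell by 0.73 ± 0.055 in Taf5l-KO (adjusted p = 2.06e-07). Zfp423, a partner of BMP SMADs, fell by 0.60 ± 0.041 in Taf6l-KO (adjusted p = 6.1e-08), and Ctdsp2, a phosphatase gene, fell by 0.36 ± 0.035 (adjusted p = 1.77e-06). In Myc-KO the co-repressor gene Skil fell by 0.79 ± 0.106 (adjusted p = 0.00106) and the phosphatase gene Ctdsp1 rose by 0.54 ± 0.064 (adjusted p = 0.000593).

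Of other known targets of BMP, Dusp9, whose product dephosphorylates ERK, fell in all 3 knockouts. It had 111 ± 1.66 CPM in Taf5l-KO and 95 ± 0.679 CPM in Taf6l-KO, against 160 ± 6.66 CPM in WT-Taf, and 44.1 ± 1.78 CPM in Myc-KO, against 84 ± 5.11 CPM in WT-Myc (SD, n = 3 each). The log2 fold changes were -0.52 ± 0.035 (adjusted p = 6.77e-08), -0.75 ± 0.035 (adjusted p = 1.53e-09) and -0.93 ± 0.064 (adjusted p = 5.19e-05). Dusp9 lies on the X chromosome, where 31.4% of tested genes fell in Taf5l-KO, 34.2% in Taf6l-KO and 16.9% in Myc-KO; the part of the X chromosome in the Taf falls was not tested. Tbx3, a transcription factor gene, fell by 0.36 ± 0.028 in Taf5l-KO (adjusted p = 2.97e-07), fell by 0.47 ± 0.028 in Taf6l-KO (adjusted p = 1.89e-08) and rose by 0.40 ± 0.04 in Myc-KO (adjusted p = 0.000275). Of the 11 tested targets, 1 rose and 3 fell in Taf5l-KO, 1 rose and 3 fell in Taf6l-KO, and 2 rose and 3 fell in Myc-KO, where Gata3 rose by 0.89 ± 0.17 (adjusted p = 0.00552). The target that rose in Taf5l-KO was Smad7, which is also counted among the other SMAD genes. Bambi is counted both here and among the intracellular regulators. Over all genes tested, 17.4% rose and 15.9% fell in Taf5l-KO, 19.1% and 18.2% in Taf6l-KO, and 15.2% and 19.5% in Myc-KO. On log2(FPKM + 1) Gata3 was at 2.35 in Myc-KO and not called (adjusted p = 0.11). Gata3 is also a trophectoderm marker, and the 8 matched markers of that lineage summed to between 77.5 and 82.4 CPM in Myc-KO and between 53.5 and 60.4 CPM in WT-Myc. These markers did not move as 1: of the 6 tested, 3 rose and 2 fell in Myc-KO. Krt8 lay between 23.9 and 27.8 CPM in Myc-KO and between 12.5 and 15 CPM in WT-Myc. Ascl2 lay between 2.12 and 2.22 CPM in Myc-KO and between 3.1 and 4.21 CPM in WT-Myc. The part of that lineage in the rise of Gata3 was not tested.

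Of the 3 genes for E proteins, the partners of ID proteins, Tcf12 rose in all 3 knockouts, by 0.21 ± 0.043 in Taf5l-KO (adjusted p = 0.00198), 0.19 ± 0.043 in Taf6l-KO (adjusted p = 0.00278) and 0.51 ± 0.08 in Myc-KO (adjusted p = 0.00223). On log2(FPKM + 1) its Taf5l-KO rise was not called (adjusted p = 0.0688). Tcf3 fell by 0.16 ± 0.039 in Taf6l-KO (adjusted p = 0.0052), but was not called there with library totals (-0.092, adjusted p = 0.123), with all 15 libraries fitted (adjusted p = 0.108) or on log2(FPKM + 1) (adjusted p = 0.0647). Tcf4 rose on counts in Taf5l-KO (0.18 ± 0.037, adjusted p = 0.00187) and Taf6l-KO (0.28 ± 0.036, adjusted p = 3.58e-05), but was lower in both, and not called, on the authors' FPKM and normalized values (-0.04 and -0.22 on log2(FPKM + 1)).

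Across the 15 libraries, each centred on its own wild type, the genes whose log2 CPM followed that of Id1 most closely were Socs5 (Pearson r = 0.966), Farsa (r = 0.965) and Nt5dc2 (r = 0.962), among 10394 genes whose mean count was at least 100. Among the BMP genes, Bmp4 (r = 0.834) and Bmpr1a (r = 0.754) were most like Id1, Smad1 (r = -0.783) and Id4 (r = -0.747) ran opposite to it, and Id3 had r = -0.351. Many other genes were closer: of the 10394, Id1 itself included, 411 had a higher r than Bmp4 and 827 a higher r than Bmpr1a. The libraries of a group share their knockout and their centring, so these correlations describe 5 groups more than 15 independent points. Both wild types average 0 by the centring, so the knockout groups mainly set the correlations. Socs5, Farsa and Nt5dc2 each fell in Taf6l-KO and Myc-KO, as Id1 did, and without Myc-KO replicate 3 each was still called lower in Myc-KO (adjusted p up to 0.00885). They were picked for their likeness to Id1 in these same libraries, so falls where Id1 fell follow from that choice. Nt5dc2, Bmp4 and Bmpr1a lie on chromosome 14, where 49.1% of tested genes fell in Myc-KO. The part of that chromosome in their likeness to Id1 was not tested. Socs5 changed by -0.39 ± 0.09 in Taf6l-KO (adjusted p = 0.00373) and -0.81 ± 0.102 in Myc-KO (adjusted p = 0.000783), and by -0.13 ± 0.089 in Taf5l-KO (adjusted p = 0.298).

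Markers of other cell types were low or moved with some groups. The 10 feeder fibroblast markers summed to between 4.39 and 5.66 CPM in Taf5l-KO, between 5.14 and 6.29 in Taf6l-KO, between 7.66 and 9 in WT-Taf, between 5.44 and 7.04 in Myc-KO and between 5.13 and 6.8 in WT-Myc, with 8 of 10 under 1 CPM in every group. The 8 matched mesoderm markers summed to between 8.5 and 10 CPM throughout. The 10 primitive endoderm markers summed to between 409 and 414 CPM in Taf5l-KO and between 475 and 481 in Taf6l-KO, against between 308 and 315 in WT-Taf, and to between 700 and 741 CPM in Myc-KO, against between 740 and 766 in WT-Myc, mostly from the matrix genes Sparc, Lama1 and Col4a1. Of the 8 tested, 5 rose and 2 fell in each Taf knockout, and 1 rose and 3 fell in Myc-KO. Over all genes tested, 17.4% rose and 15.9% fell in Taf5l-KO, 19.1% and 18.2% in Taf6l-KO, and 15.2% and 19.5% in Myc-KO. Sox7 lay between 1.3 and 1.48 CPM in Taf5l-KO and between 0.856 and 1.32 in Taf6l-KO, against between 2.37 and 3.03 in WT-Taf. Gata4 lay between 3.09 and 3.86 in Taf5l-KO and between 2.92 and 4.15 in Taf6l-KO, against between 1.76 and 2.43 in WT-Taf. The 8 matched neuroectoderm markers summed to between 92.5 and 98.9 CPM in Taf5l-KO and between 99.9 and 105 in Taf6l-KO, against between 115 and 121 in WT-Taf, and to between 128 and 143 CPM in Myc-KO, against between 189 and 199 in WT-Myc. Tubb3, a neuronal tubulin gene, fell in both Taf knockouts, with 45 ± 0.5 CPM in Taf5l-KO and 55.3 ± 1.26 CPM in Taf6l-KO, against 78.3 ± 2.39 CPM in WT-Taf (SD, n = 3 each). Of the 4 neuroectoderm markers tested, 3 rose and 1 fell in Taf5l-KO, 2 rose and 1 fell in Taf6l-KO, and 3 fell in Myc-KO. Pax6, a neural transcription factor gene, was among those that rose, with 4.09 ± 0.79 CPM in Taf5l-KO and 4 ± 0.11 CPM in Taf6l-KO, against 2.2 ± 0.564 CPM in WT-Taf. The 8 matched trophectoderm markers summed to between 53.5 and 57.2 CPM in Taf5l-KO and between 53.7 and 56 in Taf6l-KO, against between 49.7 and 51 in WT-Taf. Of the 7 tested, 3 rose and none fell in Taf5l-KO, and 4 rose and 1 fell in Taf6l-KO. The part of these markers in the changes of the BMP and Id genes was not tested.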

How the data were processed

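RNA was sequenced in 15 libraries, from total RNA depleted of ribosomal RNA with a strand-specific kit, per the labels' protocols. Salmon 0.8.2, DESeq2 1.14.1 and build mm9 appear in the submitters' processing notes, which do not say what each was used for. The authors deposited an estimated count per gene as whole numbers (100% of values), a normalized signal on a count scale, and FPKM. A TPM table was not used, since the names of its 15 value columns could not all be matched to samples.

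Samples were grouped by title. The estimated counts were tested with edgeR 4.0.16 in R 4.3.3 (TMM, filterByExpr, glmQLFit, glmQLFTest), the 9 Taf libraries together, the 6 Myc libraries together, and differences between the experiments' effects over all 15. The threshold was a Benjamini-Hochberg adjusted p of 0.05 over all genes tested. The SE is the log2 fold change divided by the square root of F. Spread between replicates, as a biological coefficient of variation, came to 4.23% in the Taf and 10.2% in the Myc experiment. Every pair of replicates differed by more than sampling noise (lowest chi-square per degree of freedom 2.68). Same-numbered samples did not deviate together (correlations between -0.118 and 0.0962 in the Taf and between -0.594 and -0.194 in the Myc experiment), so the numbers do not pair the samples. Some differently numbered Myc libraries did: r was 0.485 and 0.481 between Myc-KO replicates 1 and 2 and WT-Myc replicate 3. Between Myc-KO replicate 3 and WT-Myc replicates 1 and 2 it was 0.401 and 0.214, and for the other pairs of these groups it was negative.

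The genes and lists were chosen with earlier results of these data known. Besides the 9 genes and the targeted genes, the text names examples from the up to 3 called genes of smallest p per list and knockout (mean of at least 50 counts), and the 3 genes most like Id1. Chromosomes come from GENCODE M21, matched by ID for 32620 genes (87.4%), and promoters from RefSeq GRCm38.p6, which is not the build of the files. The alternatives were other scalings (RLE, library totals), no low-count filter, DESeq2 1.42.0, a block for the replicate number, single libraries left out, other sets of libraries fitted, and limma 3.58.1 (trend) on log2(FPKM + 1), log2(FPKM + 0.1) and the log2 of the normalized signal + 1; FPKM fits kept genes with a mean of at least 0.5. Chromosome 14 and list counts without Myc-KO replicate 3, and list counts under other scalings, were added after seeing the data. The procedure was tested on simulated counts. Figures were drawn with matplotlib 3.10.9 in Python 3.11.15.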

Additional observations from a re-analysis of the deposited data

Results flagged for a closer look

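Effects that differed between groups by a test of the difference itself were singled out: 13 of the 27 differences tested for the 9 genes passed, in 3 comparisons. Over all genes tested, 18.7% passed between the Taf knockouts, 32.1% for Taf5l minus Myc and 34.8% for Taf6l minus Myc. Both comparisons with Myc share the libraries of the Myc experiment. Taf6l-KO minus Taf5l-KO was -0.242 for Id1 and 0.397 for Id2 on the log2 scale. The Taf5l effect minus the Myc effect was 0.29 for Bmp4, 0.682 for Bmpr1a, -0.32 for Smad1, 0.523 for Id1 and -0.852 for Id3. The Taf6l effect minus the Myc effect was 0.229 for Bmp4, 0.683 for Bmpr1a, -0.346 for Smad1, 0.286 for Id1, 0.493 for Id2 and -0.733 for Id3. With DESeq2 the Taf6l minus Myc differences of Bmp4 (adjusted p = 0.0693) and Id1 (adjusted p = 0.0553) were not called. Nor were the Taf5l minus Myc difference of Smad1 (adjusted p = 0.065) and the Id2 difference between the Taf knockouts (adjusted p = 0.135). Taf and Myc effects come from separate experiments with their own wild types, so experiment and knockout cannot be told apart in them.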

How the results depend on the processing

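Of 945 values of the 9 genes under the alternatives, 858 kept their direction and side of the threshold, 72 lost their call and 15 gained one. None of these was a called value that changed sign, and 38 uncalled values near 0 did. In the 3 knockouts the 10 calls that held throughout were Bmp4 in all 3, Id3 in both Taf knockouts, Id1 in Taf6l-KO and Myc-KO, Id2 in Taf6l-KO, and Bmpr1a and Id4 in Myc-KO. Of 767 values of named pathway genes, 655 kept their call, 103 lost it and 9 reversed. The reversals were Smad3 in Taf6l-KO (-0.118 on log2(FPKM + 0.1), -0.115 on log2(FPKM + 1), -0.118 on normalized values) and Tcf4 in Taf5l-KO (-0.044, -0.043 and -0.044 in the same order) and Taf6l-KO (-0.223, -0.222 and -0.223); the cause was not tested.

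Genes called fell with log2(FPKM + 0.1) and log2(FPKM + 1) to 2663 and 2633 in Taf5l-KO (5234 on counts), 3124 and 3118 in Taf6l-KO (5861), 3173 and 3164 in Myc-KO (5064) and 923 and 926 between Taf6l-KO and Taf5l-KO (2938), and with log2(FPKM + 0.1) to 3457 for the Taf5l minus Myc effect (5229). Normalized values gave 3483 in Taf5l-KO and 1406 between the Taf knockouts, where a fit of all 15 libraries gave 1647 and DESeq2 1942. Of the 9 genes, Taf5l-KO kept 2 calls of 4 under all 15 libraries, DESeq2 and both FPKM settings. Taf6l-KO against Taf5l-KO kept 1 of 2 under all 15 libraries and DESeq2 and 0 under both FPKM settings and normalized values. Pathway genes called were 15 and 15 with FPKM and 18 with normalized values in Taf5l-KO (29 on counts), 19, 18 and 23 in Taf6l-KO (39), and 20 and 19 with FPKM in Myc-KO (32). The cause of these drops was not tested.

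With the replicate block, Myc-KO had 3139 genes and 19 pathway genes called, and of the calls in the 9 genes it ended Smad1 in Myc-KO (0.331, adjusted p = 0.0613), Id4 in Taf6l-KO (0.487, adjusted p = 0.0527), the Taf6l minus Myc differences of Bmp4 (0.231, adjusted p = 0.0704) and Id1 (0.289, adjusted p = 0.0709) and the Taf5l minus Myc difference of Smad1 (-0.319, adjusted p = 0.0689).

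With each library left out, genes called lay between 4243 and 4751 in Taf5l-KO, 4933 and 5136 in Taf6l-KO, 3402 and 5923 in Myc-KO (lowest without WT-Myc replicate 2, highest without Myc-KO replicate 3), 2022 and 2634 between the Taf knockouts, 4478 and 5766 for Taf5l minus Myc and 4950 and 6348 for Taf6l minus Myc. Of the 9 genes, between 2 and 4, 5 and 7, 5 and 6, 1 and 2, 4 and 5, and 4 and 6 were called in the same order. Pathway genes called lay between 21 and 25 in Taf5l-KO, 24 and 31 in Taf6l-KO and 19 and 35 in Myc-KO. Library totals moved the share of calls that were rises to 69% in Taf6l-KO (51.2% with TMM), 83.1% between the Taf knockouts (45.8%) and 60.8% for Taf6l minus Myc (49.2%). Id4 had between 37 and 95 counts per library in the Taf experiment and Id2 between 66 and 135, which limits their precision there.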
